A study of Drosophila melanogaster with 36 samples.

Results

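The insect cuticle is built largely of chitin fibres and cuticle proteins, and the 120 genes described here are those whose symbol places them in the Cpr, Lcp, Ccp84A or Twdl families, of 17610 genes counted. The set was taken by symbol alone and holds 70 Cpr, 26 Twdl, 17 Lcp and 7 Ccp84A genes. Cpr, Lcp and Ccp84A genes encode proteins of the chitin-binding type known as CPR, after the Rebers-Riddiford consensus. Twdl genes encode the Tweedle family, whose member TwdlD is known for mutations that give short, stout larvae. Epidermis, trachea and the lining of the fore- and hindgut secrete these proteins, and sets of them are replaced at each moult under control of the steroid hormone ecdysone. The fat body, a storage and secretory organ, lays down no cuticle, so the labelled tissue is not one in which these transcripts are usually looked for.

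RNA came from dissected fat bodies of Drosophila melanogaster larvae in the third instar, of the genotypes per0, a mutant of the clock gene period, and w1118, a common laboratory strain with a mutant white gene. Both were sampled in constant darkness at 9 circadian times (CT) from CT0 to CT32, 4 h apart, with 2 libraries for each genotype and time and 36 libraries in all. Parents had been entrained to light-dark cycles on cornmeal food, and the larvae were staged by their mouth hooks, which give no hour within the instar. Each library held the fat bodies of 5 larvae of both sexes, so a value is a mean over a small pool of animals of unknown exact age. The per0 mutation is carried by every cell of the animal and not only by the fat body. Sample titles number the 2 duplicates of a group as biological replicates, but no label says that they were reared apart, so each p-value measures the spread between these libraries. Libraries are named here by genotype, time and column letter, for example per0 CT0 A, and the letters do not pair libraries across groups.

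Totals ran from 16513757 to 28423768 counts per library in per0 and from 16948806 to 25110769 in w1118, and 3 counts, taken as the detection floor, equalled 0.106 to 0.182 CPM, a count scaled for library size. The period transcript measured at most 1.99 CPM in any library, with a difference of -0.45 ± 0.72 log2 (SE) between per0 and w1118 (adjusted p = 0.617), so it does not separate the genotypes. One library stood apart: per0 CT28 B had 14.8 CPM of nAChRalpha7 and 18.3 CPM of Hs3st-A, against at most 1.004 and 0.471 CPM in the other per0 libraries and medians of 35.0 and 29.0 CPM in w1118. Member counts for time, day and genotype are also given without it. One w1118 CT0 sample carries a genotype tag that names per0, against its title, and results that rest on CT0 are also given without that time. Serum protein, lipoprotein and other secreted-protein genes, 10 genes that mark the fat body, summed to between 20200 and 517400 CPM in per0 and between 92410 and 467700 CPM in w1118. Genes of other tissues were also counted: summed CPM of 16 muscle genes ran from 399.1 to 6528 in per0 and from 424.4 to 5782 in w1118, and of 12 salivary glue genes from 0.132 to 13060 and from 0.251 to 2971. In bulk RNA of this kind, fewer cells of a type and less RNA per cell cannot be told apart.

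Many of the cuticle genes gave a clear signal in at least 1 library. Of the 120, 64 reached 1 CPM somewhere, 39 reached 10 CPM and 16 reached 100 CPM. By family, 36 of 70 Cpr genes, 12 of 26 Twdl genes, 11 of 17 Lcp genes and 5 of 7 Ccp84A genes reached 1 CPM. No count was found in any library for 10 members, Cpr57A, Cpr65Au, Cpr65Ax1, Cpr65Ax2, Cpr67Fb, Lcp65APsi, Lcp65Ab1, Lcp65Ab2, Lcp65Ag3 and TwdlR, which allows a level of up to 0.182 CPM each, for counting error only. Lcp65Ab1 and Lcp65Ab2, Cpr65Ax1 and Cpr65Ax2, and the Lcp65Ag genes are near-identical copies, and reads that match more than one copy may not have been counted, so their zeros and the split between Lcp65Ag1 and Lcp65Ag2 are uncertain. Exons of 9 members overlap those of another gene on the annotation used here, among them Lcp9 (with asRNA:CR44067), Cpr73D (with Ogdh), Cpr47Ea (with Or47a) and Twdlalpha (with CG32568). The library kit keeps no strand, so counts of such pairs cannot be told apart.

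Cuticle genes lie in rows of close relatives. Of the 120, 67 stood in 9 runs of at least 4 members with at most 2 other protein-coding genes between neighbours. The longest run, at cytological band 65A, held 17 members, and the TwdlM to TwdlQ run held 13. The Ccp84A, Cpr47E and Cpr49A runs held 7 each, and the Cpr64A, Cpr76B, Lcp1 to Lcp4 and TwdlX to Twdlalpha runs held 4 each. Runs differed in how many of their genes were seen: all 4 of Lcp1 to Lcp4 and 5 of 7 Ccp84A genes reached 1 CPM, against 1 of 4 in the Cpr64A run and 0 of 4 in the Cpr76B run. Cpr76Bc, the member of that last run with the highest mean, stayed at or under 0.592 CPM, its level in per0 CT32 B.

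Per kilobase of exon, which allows levels of different genes to be compared, Cpr49Ac came first at 159 CPM per kb over the 36 libraries. Lcp4 followed at 129, Lcp3 at 63.8 and Cpr47Ec at 57.1 CPM per kb. Cpr49Ag, Cpr47Eg and Lcp65Ag1 lay close together at 31.7, 31.4 and 29.2 CPM per kb, and Cpr67Fa2 had 25.4. The next 4 were Lcp2, Cpr67Fa1, Lcp9 and Lcp1, between 20.1 and 15.2 CPM per kb. The order was not tested between genes and is a description only. Levels varied widely over libraries and times: Cpr49Ac averaged 354 ± 441 CPM (SD) in the 18 per0 libraries and Lcp4 averaged 87.2 ± 104 CPM.

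Members were not spread evenly over the libraries. Without Cpr49Ac, their CPM summed to 3237 in per0 CT0 A and 1053 in per0 CT0 B, against 1051 in w1118 CT0 A and 549.9 in w1118 CT0 B. At CT4 the sums were 153.5 and 162.5 CPM in per0 and 55.4 and 129.5 CPM in w1118. The highest later sums came from single libraries: 657.0 in per0 CT8 A, 664.0 in per0 CT16 B, 688.5 in per0 CT32 B, and 1884 and 1228 in w1118 CT24 B and CT28 B. The partner libraries of these, in the same order, had 295.0, 103.9, 34.3, 138.0 and 579.5 CPM. Duplicates of 1 genotype and time thus differed by several-fold in many cases, and this spread enters every test below. The count of members at 1 CPM or more was 56 and 48 in the per0 CT0 libraries and 40 and 39 in the w1118 CT0 libraries, and fell to its lowest value, 7, in w1118 CT32 B.

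**Figure D1:**
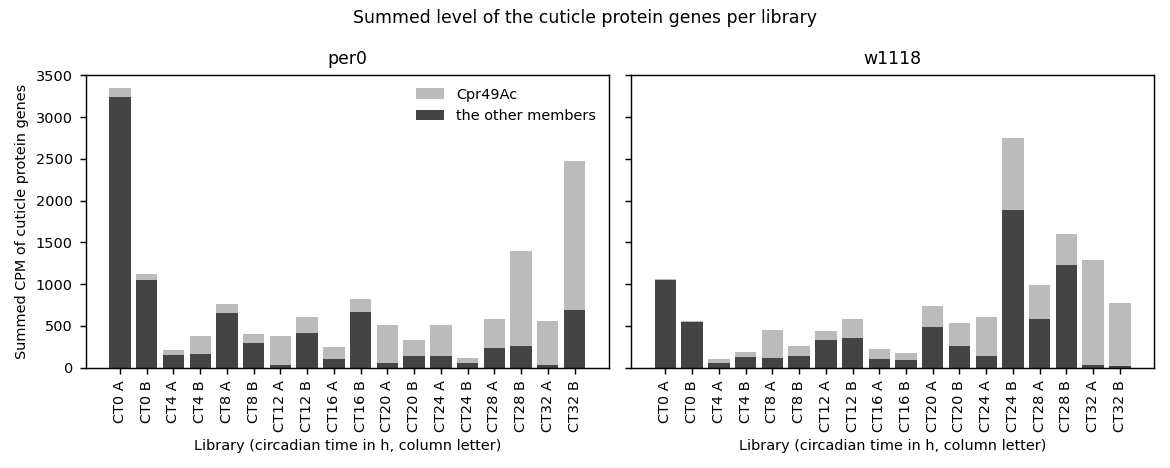
Summed CPM of the 120 cuticle protein genes in each library, per0 on the left and w1118 on the right, with libraries in order of circadian time (h) and column letter; grey marks Cpr49Ac and black the other members. The tallest bars are per0 CT0 A (3344 CPM) and w1118 CT24 B (2747 CPM), and Cpr49Ac makes up 97.5% and 97.4% of the w1118 CT32 bars.

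CT0, the first time sampled, was the most frequent peak, and it held most of the per0 peaks. Of the 62 members that reached 1 CPM in per0, 46 had their highest per0 library at CT0. In w1118 it was 23 of 49, with 13 more highest at CT24. Among the 47 members that reached 1 CPM in both genotypes, 18 had their highest library at CT0 in both. A single library, per0 CT0 A, held the highest value of 36 members, and w1118 CT24 B held that of 10. The share of all genes with their highest library at CT0 was not taken, so these counts are descriptions only.

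TwdlO, a Tweedle gene, is the clearest of the genes seen early. In per0 its level was 149.6 and 49.2 CPM at CT0, between 0.0508 and 31.7 CPM from CT4 to CT20, 0.214 and 0.234 CPM at CT24, and 0 in the 4 libraries of CT28 and CT32. In w1118 its level was 21.5 and 29.9 CPM at CT0, between 0.0463 and 9.46 CPM from CT4 to CT20, and 0 in all 6 libraries of CT24 to CT32. The late libraries lay below the early ones of CT0 to CT8 in both genotypes without overlap.

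Cpr64Ad, a CPR gene, fell away faster. It measured 387 and 31.5 CPM in per0 at CT0, and 48.5 and 13.6 CPM in w1118 at CT0. At later times it stayed at or under 3.67 CPM in per0 and 0.181 CPM in w1118. Ccp84Ag, the most abundant Ccp84A gene, gave 311 and 11.1 CPM in per0 at CT0 and at most 8.03 CPM later, and 69.2 and 10.5 CPM in w1118 at CT0 and at most 5.95 CPM later. The CT0 duplicates of both genes differed by more than 3-fold in each genotype, so the height of the CT0 peak is poorly known.

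The Ccp84A run and the TwdlM to TwdlQ run were also highest at CT0 as sums. The summed level of the 7 Ccp84A genes was 390.8 and 26.4 CPM in per0 CT0 and 77.4 and 12.9 CPM in w1118 CT0, and at most 8.54 and 6.21 CPM in any later library. Ccp84Ag alone made up most of it, with 311 CPM in per0 CT0 A. The 13 genes from TwdlM to TwdlQ summed to 220.6 and 62.6 CPM in per0 CT0 and 24.2 and 33.2 CPM in w1118 CT0. Later they still reached 33.8 CPM in per0 CT16 B, 21.5 CPM in per0 CT8 B and 10.8 CPM in w1118 CT20 A. Several members were nearly private to per0 CT0 A. Ccp84Ae had 48.2 CPM there, 0.922 CPM in per0 CT0 B and at most 0.306 CPM elsewhere. Cpr65Ec, a CPR gene, had 10.6 CPM in per0 CT0 A, 1.298 CPM in per0 CT0 B and at most 0.259 CPM elsewhere.

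**Figure D2:**
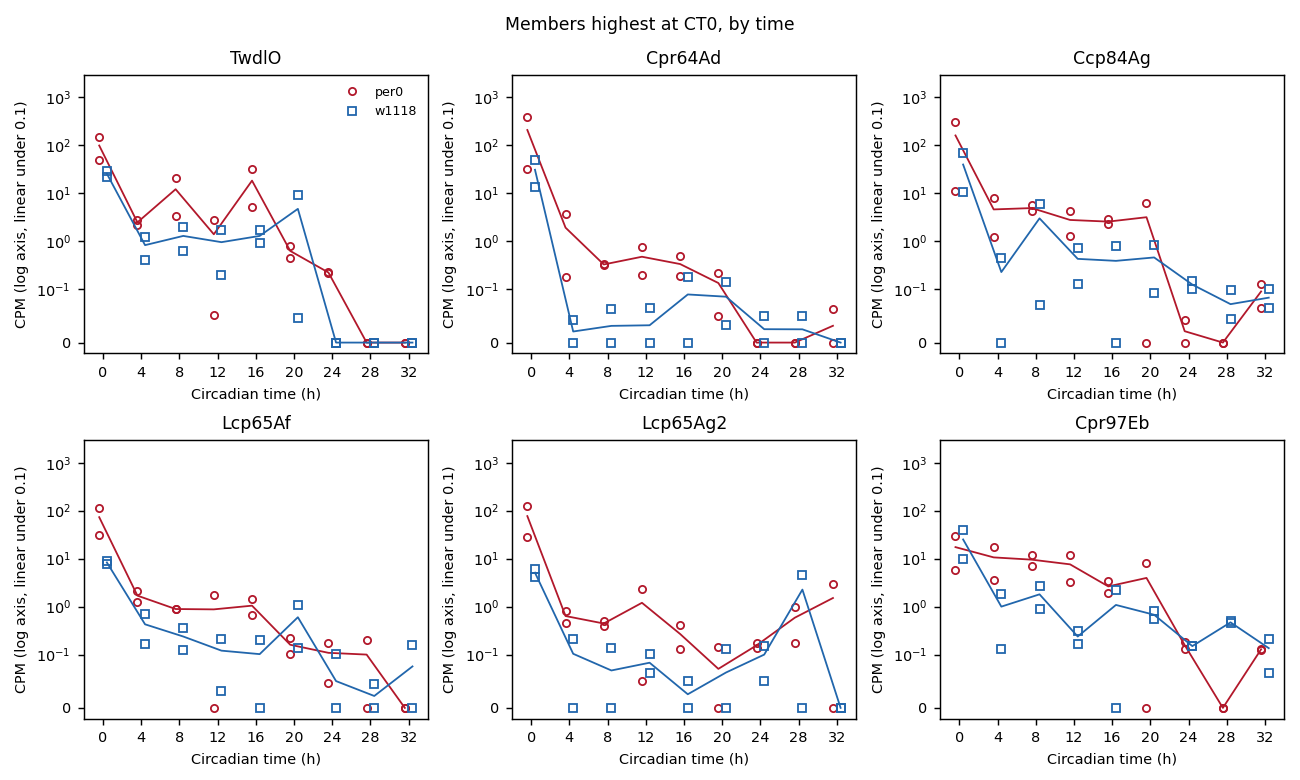
CPM (log axis, linear under 0.1) against circadian time (h) for 6 members, per0 in red circles and w1118 in blue squares; each point is a library and lines join the means of the 2 duplicates. All 6 are highest at CT0 in both genotypes, as for Cpr64Ad with 387 CPM in per0 CT0 A and 48.5 CPM in w1118 CT0 A.

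Other transcripts moved with CT0. The 16 muscle genes summed to 6528 and 6236 CPM in per0 CT0 and to 5782 and 3407 CPM in w1118 CT0, against medians of 1131 and 1289 CPM over the 16 later libraries of per0 and of w1118. The 10 serum protein and lipoprotein genes were at their lowest there, at 25900 and 20200 CPM in per0 CT0 and 124400 and 92410 CPM in w1118 CT0. The 14 tracheal genes summed to 97.8 and 79.4 CPM in per0 CT0 and to 60.8 and 63.7 CPM in w1118 CT0, against medians of 28.8 and 32.6 CPM later, with a highest later sum of 114.2 CPM in per0 CT8 A. The 15 epidermal genes summed to 75.3 and 61.8 CPM in per0 CT0 and 24.6 to 123.9 CPM later, and to 126.8 and 70.7 CPM in w1118 CT0 and 35.6 to 97.4 CPM later. Most of that sum was cher, a filamin gene expressed widely. The other 14, which include the epidermal regulators grh and ovo, summed to 17.8 to 19.5 CPM in per0 CT0, against a median of 11.6 and a highest of 25.4 CPM later, and to 16.5 to 22.6 CPM in w1118 CT0, against 17.0 and 32.4 CPM later. The part of muscle, tracheal, epidermal or serum protein transcripts in the cuticle values was not tested.

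A test for any difference between the 9 times, judged by the spread of duplicates, called 22 of 60 members tested in per0 and 23 of 50 in w1118. Over all genes the same tests called 9.71% in per0 and 12.2% in w1118. The other 60 members in per0 and 70 in w1118 had too few counts to enter. Members could pass the count filter through the time at which they were high, so these shares are descriptions only. The calls included 4 of 4 Ccp84A genes tested in per0 and 2 of 3 in w1118, 5 of 11 and 8 of 11 Lcp genes, 8 of 35 and 12 of 29 Cpr genes, and 5 of 10 and 1 of 7 Twdl genes. The smallest adjusted p-values in per0 belonged to Cpr64Ad (0.00547), Cpr100A and Lcp65Af (both 0.00625) and Lcp65Ag2 (0.0122), and in w1118 to Cpr49Ac (0.001), Lcp1 (0.00284), Cpr64Ad (0.00334) and Lcp2 (0.00829). Called in both were 9 members, 40.9% of the per0 calls and 39.1% of the w1118 calls, namely Ccp84Ab, Ccp84Ag, Cpr47Eg, Cpr64Ad, Cpr78E, Lcp65Aa, Lcp65Af, Lcp65Ag1 and TwdlX.

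Many of these calls rested on CT0. Without the CT0 libraries, 1 of 45 members was called in per0, TwdlX, beside 3.96% of all genes, and 11 of 42 in w1118, beside 12.5%. In those per0 libraries TwdlX was high in 1 alone, CT32 B at 231.8 CPM, with 0.189 CPM in its duplicate and at most 1.13 CPM elsewhere. Without per0 CT0 A alone, 4 were called in per0 (3.91% of all genes), and without w1118 CT0 A alone, 10 in w1118 (9.64%). Without per0 CT28 B, 19 were called in per0 (8.29%). The members called in w1118 without CT0 included Cpr49Ac (adjusted p = 0.00586), Lcp1 (0.00648), Lcp2 (0.0114), Lcp4 (0.018) and Lcp3 (0.0339).

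**Figure D3:**
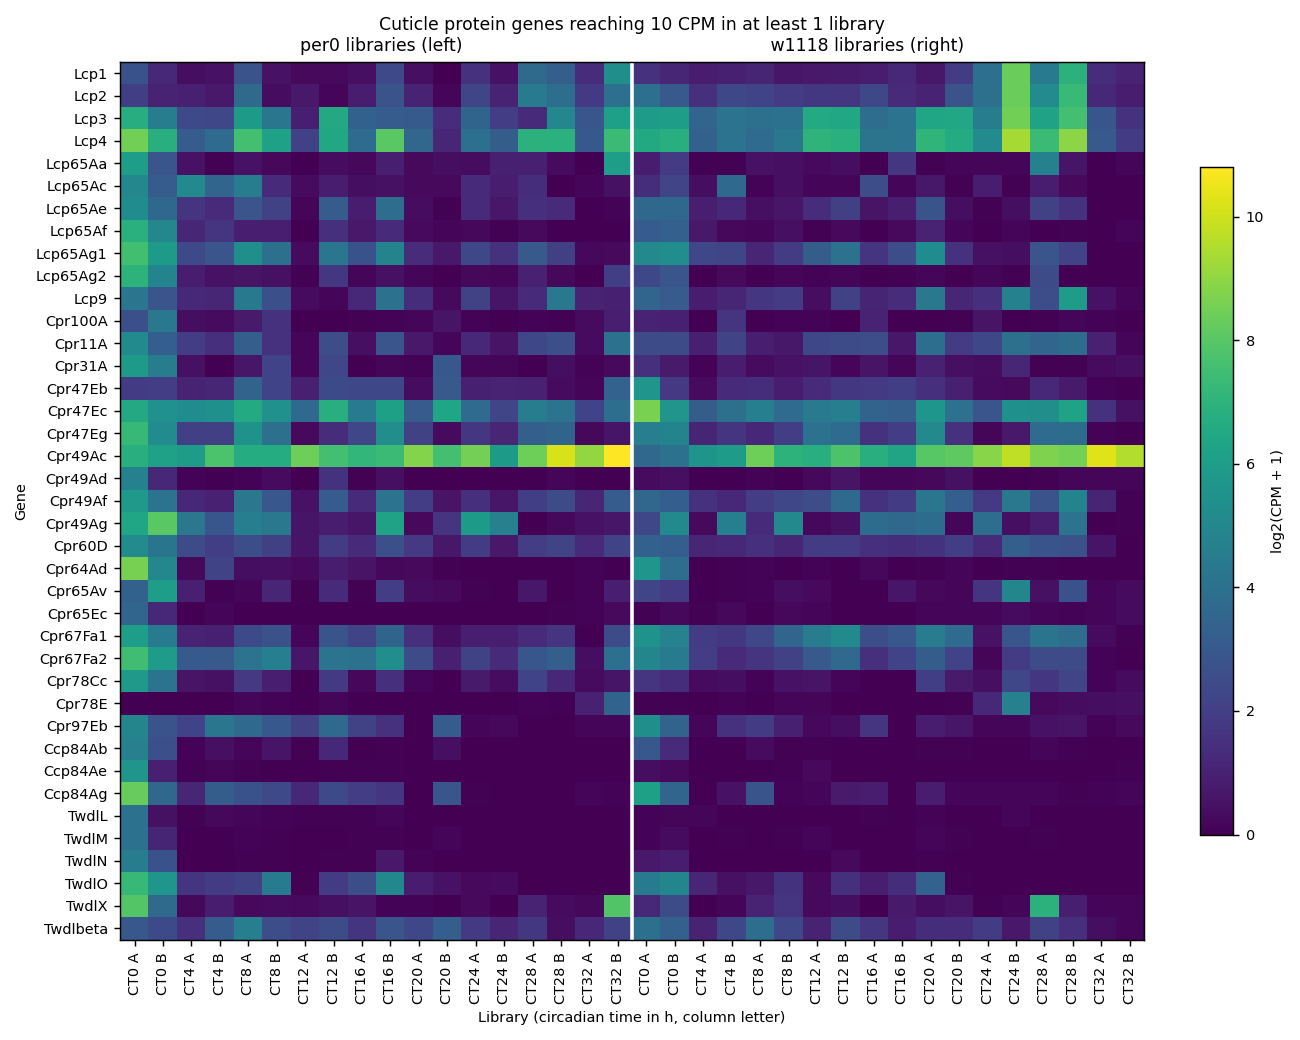
Level of the 39 members that reached 10 CPM in at least 1 library, shown as log2(CPM + 1) by colour, with genes as rows and libraries as columns (per0 left of the white line, w1118 right of it) in order of circadian time and column letter. The bright first column is per0 CT0 A, the row that brightens to the right in both genotypes is Cpr49Ac, and Lcp1 to Lcp4 are brightest in w1118 CT24 B and CT28 B.

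Cpr49Ac, a CPR gene of the 49A run, was highest late in both genotypes. In per0 its level in columns A and B was 108 and 71.8 CPM (CT0), 62.4 and 212 (CT4), 102 and 103 (CT8), 339 and 192 (CT12), 140 and 163 (CT16), 450 and 190 (CT20), 375 and 58.3 (CT24), 346 and 1139 (CT28), and 526 and 1789 CPM (CT32). In w1118 the level was 11.5 and 15.2 CPM (CT0), 46.9 and 62.0 (CT4), 339 and 124 (CT8), 108 and 223 (CT12), 112 and 79.2 (CT16), 253 and 277 (CT20), 467 and 863 (CT24), 415 and 375 (CT28), and 1258 and 759 CPM (CT32). In w1118 every library of CT24 to CT32 stood above every library of CT0 to CT8, while in per0 the groups overlapped because per0 CT24 B lay at 58.3 CPM.

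The second day, CT24 to CT32, was compared with CT0 to CT8 at matched clock phase, so that a 24 h cycle cancels. Where CT0 was left out, CT24 had no match, so the day change then rested on CT4, CT8, CT28 and CT32. Cpr49Ac averaged 706 ± 641 CPM on the second day in per0, against 110 ± 53.3 CPM on the first (SD, n = 6 each), a rise of 2.40 ± 0.63 log2 (adjusted p = 0.0293). In w1118 it averaged 690 ± 341 CPM on the second day, against 99.8 ± 124 CPM on the first, a rise of 3.50 ± 0.63 log2 (adjusted p = 0.0054). The w1118 call was kept in every alternative run, with 2.46 log2 (adjusted p = 0.0329) without CT0. The per0 call was kept in 6 of 12 fits that left out 1 library, with 2.07 log2 and adjusted p = 0.0472 without per0 CT28 B and adjusted p up to 0.0933 without per0 CT8 B. Over all times per0 and w1118 differed by 0.42 ± 0.35 log2 (adjusted p = 0.323).

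Late libraries could hold Cpr49Ac and little else. It made up 93.9% and 72.2% of the summed cuticle CPM in per0 CT32 and 97.5% and 97.4% in w1118 CT32. In the w1118 CT32 libraries the other 119 members summed to only 32.8 and 20.1 CPM. Cpr49Ag, in the same run, was near the floor there and measured 0.441 and 0.592 CPM in per0 CT32 and 0 and 0.0519 CPM in w1118 CT32. Cpr49Ac is also the 1 cuticle gene listed in the normalized tables of both genotypes, which hold 5930 genes for per0 and 6138 for w1118. Cpr47Ec was listed beside it for per0, and Lcp3 and Lcp4 for w1118.

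Lcp1, Lcp2, Lcp3 and Lcp4 encode abundant proteins of the cuticle of the third larval instar. In per0, Lcp4 was highest in CT0 A at 367 CPM, followed by 264 CPM in CT16 B and 191 CPM in CT8 A. Lcp3 had 105 CPM in per0 CT0 A and 91.6 CPM in per0 CT12 B. Lcp1 and Lcp2 stayed lower, with 40.8 CPM of Lcp1 in per0 CT32 B and 20.7 CPM of Lcp2 in per0 CT28 A as their highest per0 values. The high per0 libraries of the 4 genes were thus scattered over the course.

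In w1118 the 4 genes peaked in the same late libraries. In w1118 CT24 B they measured 324, 323, 366 and 648 CPM, and in w1118 CT28 B 122, 160, 191 and 484 CPM, in the order Lcp1 to Lcp4. The partner library w1118 CT24 A gave 14.5, 15.0, 22.1 and 35.9 CPM, and w1118 CT28 A gave 20.1, 36.1, 72.9 and 165.2 CPM. At CT0 in w1118 Lcp3 had 61.6 and 63.8 CPM and Lcp4 had 92.8 and 107.8 CPM, above their CT4 and CT8 levels. Both were high again in the 2 duplicates of CT12 and of CT20. Lcp3 had 97.4 and 88.3 CPM at CT12 and 84.05 and 85.35 CPM at CT20. Lcp4 had 130.1 and 114.3 CPM at CT12 and 133.9 and 100.3 CPM at CT20. Between these times, at CT16, Lcp3 had 13.7 and 16.3 CPM and Lcp4 17.0 and 16.4 CPM. At CT32 in w1118 the levels were low, at most 7.13 CPM, which was that of Lcp4 in column A. Over the 9 times none of the 4 was called in per0, where adjusted p-values were 0.116 (Lcp1), 0.184 (Lcp2), 0.41 (Lcp3) and 0.251 (Lcp4), and all 4 were called in w1118. The difference in course between genotypes did not pass its own test, with adjusted p = 0.117 for Lcp4.

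Between days, Lcp1 averaged 11 ± 15.4 CPM on the second day in per0 and 2.34 ± 2.66 CPM on the first (2.14 ± 1.44 log2, adjusted p = 0.361). In w1118 it rose, averaging 80.6 ± 128 CPM on the second day and 1.10 ± 0.473 CPM on the first (5.18 ± 1.51 log2, adjusted p = 0.0464). That call was kept in 3 of 12 fits that left out 1 library. It was not kept without CT0 (adjusted p = 0.49), a fit in which CT24 has no match. The highest Lcp1 value, 323.9 CPM in w1118 CT24 B, then tells nothing on the day change. Lcp9, chosen after its values were seen, had its highest level in w1118 CT28 B at 61.4 CPM and was called in no comparison.

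**Figure D4:**
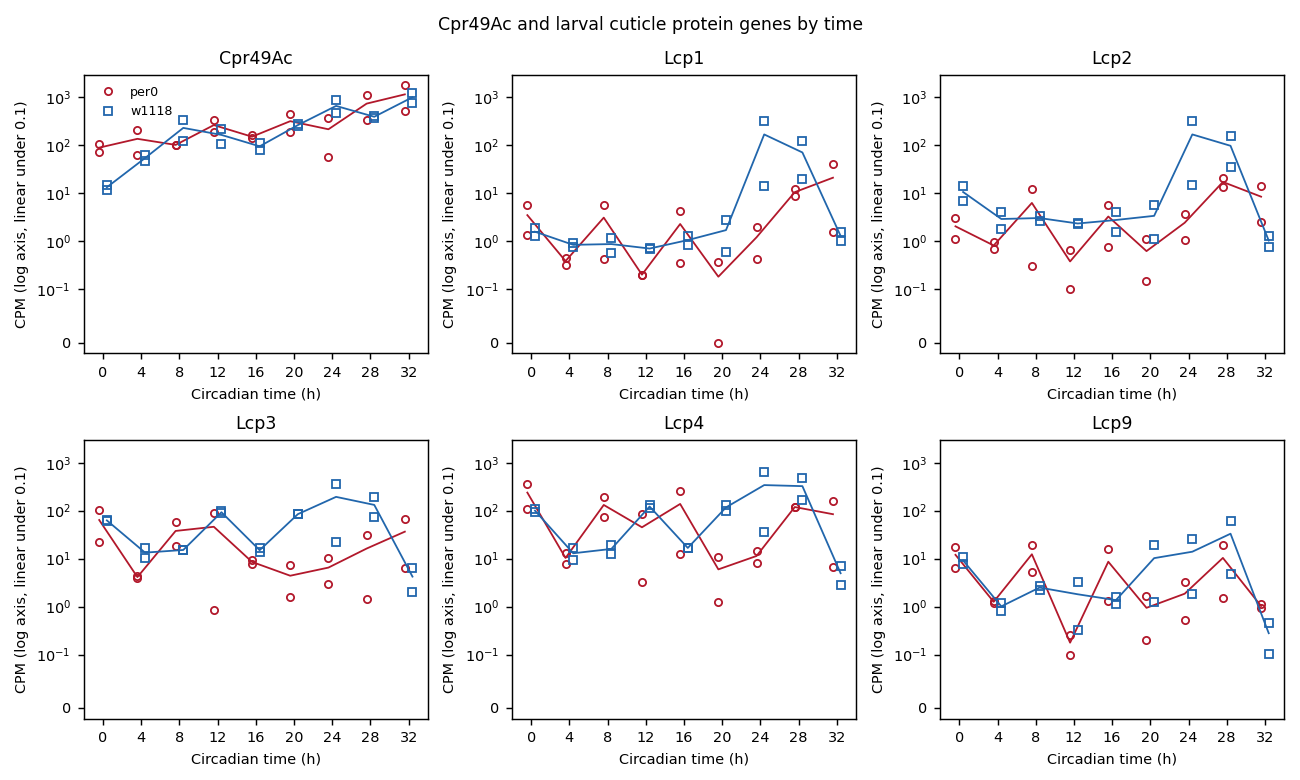
CPM (log axis, linear under 0.1) against circadian time (h) for Cpr49Ac and 5 Lcp genes, per0 in red circles and w1118 in blue squares; points are libraries and lines join the means of the 2 duplicates. Cpr49Ac is highest at CT32 in both genotypes (1789 CPM in per0 CT32 B, 1258 CPM in w1118 CT32 A), while Lcp1 to Lcp4 peak in w1118 CT24 B.

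A few members were high in isolated libraries. TwdlX, an X-linked Tweedle gene, measured 238 CPM in per0 CT0 A, 12.4 CPM in per0 CT0 B, 232 CPM in per0 CT32 B and 122 CPM in w1118 CT28 A, and at most 4.47 CPM in the other 32 libraries. Its partner libraries at those later times gave 0.189 CPM in per0 CT32 A and 0.894 CPM in w1118 CT28 B. Lcp65Aa, an Lcp gene of the 65A run named after its values were seen, was highest in the same 4 libraries, at 65.7, 6.18, 64.6 and 26.0 CPM.

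Other libraries carried other members. Cpr65Av, also of the 65A run, measured 65.6 CPM in per0 CT0 B and 29.8 CPM in w1118 CT24 B, against 9.11 CPM in per0 CT0 A. Cpr78E, a CPR gene at or under 0.126 CPM in every library through CT20, measured 1.01 and 10.3 CPM in columns A and B of per0 CT32, and 1.35 and 25.1 CPM in those of w1118 CT24. In per0 the second-day rise of Cpr78E passed the test (4.52 ± 0.94 log2, adjusted p = 0.02), but not without per0 CT32 B (adjusted p = 0.129). In w1118 all 6 second-day libraries of Cpr78E lay above the 6 first-day ones, though the day test did not call it. Cpr49Ag measured 264 CPM in per0 CT0 B and 81.3 CPM in per0 CT0 A, then varied between duplicates from CT4 to CT24.

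**Figure D5:**
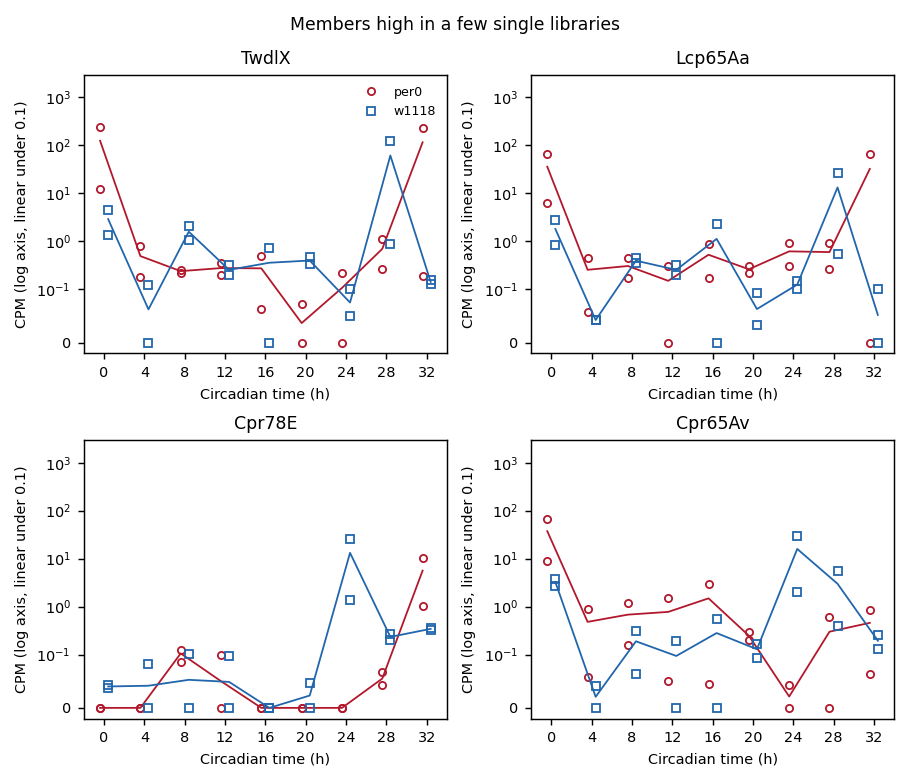
CPM (log axis, linear under 0.1) against circadian time (h) for TwdlX, Lcp65Aa, Cpr78E and Cpr65Av, per0 in red circles and w1118 in blue squares; points are libraries and lines join the means of the 2 duplicates. At the peaks the duplicates lie far apart, as in per0 CT32, where TwdlX had 232 CPM in column B and 0.189 CPM in column A.

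In per0 most cuticle genes that changed between days were lower on the second. Of 60 members tested 17 were called, 2 higher and 15 lower, where 8.97% of all genes were called higher, 7.64% lower and 16.6% in all. The 2 that rose were Cpr49Ac and Cpr78E, given above. The 15 that fell were TwdlL, TwdlM, TwdlN and TwdlO, Ccp84Ab, Ccp84Ad, Ccp84Ae and Ccp84Ag, Lcp65Ac, Lcp65Af and Lcp65Ag1, and Cpr47Ec, Cpr49Ag, Cpr64Ad and Cpr97Eb. A lower fitted level was found for 51 of the 60, or 85%, and for 56.3% of all genes tested. The median log2 change of the members was -2.39, or -2.09 with 10 genes without a second-day count set at their bound, beside -0.11 over all genes. Members could pass the count filter through the day on which they were high, so these shares are descriptions only.

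Cpr97Eb, a CPR gene, was lower on the second day in per0 without overlap. On the second day it measured 0.128, 0.187, 0, 0, 0.126 and 0.132 CPM in per0, against 29.0, 5.74, 3.53, 17.7, 12.1 and 6.97 CPM on the first (adjusted p = 0.000771). All first-day libraries lay at least at 3.53 CPM and all second-day libraries lay near or under the floor. TwdlO (adjusted p = 0.000268) and Lcp65Af (0.00185) also did not overlap between days. Without overlap in per0 were 9 members, or 15% of the 60, beside 6.13% of all genes.

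For members with no count in any second-day per0 library only a bound can be given. With a floor of 3 counts per library, Ccp84Ae was at least 61.7-fold lower on the second day, Ccp84Ab at least 38.9-fold, TwdlN at least 35.3-fold, TwdlM at least 20.7-fold, TwdlL at least 19.9-fold and Ccp84Ad at least 17.9-fold. Several of these bounds rested on per0 CT0 A. Without it they were 14.1-fold for Ccp84Ad, 9.50-fold for Ccp84Ab and 8.56-fold for TwdlN, but 1.90-fold for TwdlM, 1.67-fold for Ccp84Ae and 1.21-fold for TwdlL. Among members with counts on both days, Lcp65Ac fell by 4.80 ± 0.99 log2 (adjusted p = 0.0111), Cpr49Ag by 4.45 ± 0.86 (0.00886), Lcp65Ag1 by 4.33 ± 1.31 (0.0479) and Cpr47Ec by 2.39 ± 0.54 (0.0166). Cpr47Ec, a CPR gene, measured 12.7, 3.79, 23.01, 16.2, 3.47 and 14.1 CPM on the second day in per0 and 91.5, 42.6, 37.4, 42.2, 95.5 and 42.9 CPM on the first.

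Leaving out CT0, and with it the match of CT24, changed this comparison too. In that fit 8 members were called, beside 14.8% of all genes. They were 2 higher (Cpr49Ac and Cpr78E) and 6 lower, which were TwdlO, Cpr97Eb, Ccp84Ag, Cpr49Ag, Lcp65Ac and Lcp65Af. Of the other main calls, Cpr47Ec and Lcp65Ag1 were tested there and not called. TwdlL, TwdlM, TwdlN, Ccp84Ab, Ccp84Ad, Ccp84Ae and Cpr64Ad had too few counts to enter that fit. Without per0 CT28 B, 28 members were called, 2 higher and 26 lower, beside 24.9% of all genes. Without per0 CT8 A, 10 were called, with no share over all genes at hand. On the same days 4 of 9 tracheal genes tested fell in per0 (Osi15, Osi7, dpy and pio), and 0 of 11 epidermal genes and 1 of 16 muscle genes, TpnC47D, were called. Over all genes 7.64% were called lower and 16.6% in all. Of the tracheal genes that fell, dpy and pio act in the tracheal or epidermal extracellular matrix. Osi7 and Osi15 were weakly counted, with at most 0.737 and 0.753 CPM in any library. The summed tracheal level ran from 8.71 to 48.5 CPM on the second day in per0 and from 27.1 to 114.2 CPM on the first, and its part in the result was not tested.

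In w1118 few members were called between days. Of 50 tested 3 passed, 2 higher (Cpr49Ac and Lcp1) and 1 lower (TwdlO), where 4.57% of all genes were called higher, 10.5% lower and 15.1% in all. TwdlO measured 0 in all 6 second-day libraries, against 21.5, 29.9, 1.25, 0.416, 0.627 and 1.97 CPM on the first day, at least 60.9-fold lower (adjusted p = 0.00307), and was not called without CT0. A lower fitted level was found for 33 of 50 members, or 66%, beside 42.4% of all genes. The median log2 change was -1.61, or -1.42 with 2 genes at their bound, beside 0.13 over all genes. Here too members could pass the count filter through the day on which they were high, so these shares are descriptions only. Leaving out w1118 CT28 A gave 6 calls, with no share over all genes at hand. Leaving out CT0 gave 1, Cpr49Ac, beside 2.01% of all genes. TwdlO, Cpr49Ac and Cpr78E did not overlap between days, 6% of members beside 5.71% of all genes.

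A difference between the genotypes in the change from first to second day was called for 0 of 62 members by edgeR, beside 0.499% of all genes (0.423% higher in per0 and 0.0762% lower). At an unadjusted p under 0.05 there were 11, and DESeq2 and limma voom also called 0. The smallest adjusted p-values belonged to Cpr62Bb (0.155), TwdlM (0.288) and TwdlL (0.3), all of them without a second-day count in per0. Called in both genotypes were Cpr49Ac and TwdlO, 11.8% of the per0 calls and 66.7% of the w1118 calls. The longer per0 list is thus not shown to differ from that of w1118.

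Across all times, per0 exceeded w1118 for 7 of 62 members and lay below it for 1, where 19.4% of all genes were called higher, 23% lower and 42.4% in all. The genes higher in per0 were Cpr64Ad (2.77 ± 0.63 log2, adjusted p = 0.000913), TwdlG (1.81 ± 0.52, 0.00693), Ccp84Ad (2.49 ± 0.69, 0.00707), Cpr67Fa2, Lcp65Ag2, Ccp84Ag and Ccp84Ab. The last 4 had differences of 1.72, 2.34, 1.92 and 1.95 log2, with adjusted p-values from 0.0223 to 0.0424. Cpr49Ah was lower in per0 (-3.04 ± 0.98 log2, adjusted p = 0.0156). The share of members called, 12.9%, was below that of all genes. The median difference was 0.44 log2 in members and -0.16 log2 in all genes.

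Several of these rested on CT0. Without CT0 the calls were 4, beside 48.2% of all genes: Cpr64Ad and TwdlG higher in per0, and Cpr56F and Twdlalpha, named after their values were seen, lower. Cpr49Ah, Cpr67Fa2, Lcp65Ag2, Ccp84Ag and Ccp84Ab were tested there and not called, and Ccp84Ad had too few counts to enter. Without per0 CT28 B 11 were called, 8 higher and 3 lower, beside 52.8% of all genes. The lower ones were Cpr49Ah, Cpr56F (adjusted p = 0.0289) and Twdlalpha (0.0127), and with that library kept the last 2 had adjusted p-values of 0.0981 and 0.0553. Without per0 CT0 A 5 were called, beside 42.6% of all genes. Without w1118 CT20 A 13 were called, with no share over all genes at hand. Cpr56F and Twdlalpha were high in several libraries that also held testis transcripts, but not only there. In per0 CT28 B, Cpr56F had 1.17 CPM and Twdlalpha its highest per0 level, 1.73 CPM, and betaTub85D, the testis beta-tubulin, had 97.6 CPM. The highest per0 level of Cpr56F, 1.47 CPM, was in CT0 B, where Twdlalpha had 0.956 CPM and betaTub85D 0.922 CPM. In w1118 CT0 B, Twdlalpha had 1.35 CPM and betaTub85D 0. In w1118 CT24 B, CT12 A, CT20 A and CT32 B, Cpr56F measured 4.52, 2.24, 3.19 and 1.92 CPM, Twdlalpha 4.97, 2.96, 2.12 and 2.23 CPM, and betaTub85D 280.3, 145.2, 187.3 and 161.2 CPM. In w1118 CT20 B the same 3 genes measured 3.48, 1.62 and 146.7 CPM. The 14 testis genes summed to between 0.0936 and 334.7 CPM in per0 (median 8.42) and between 0.409 and 944.2 CPM in w1118 (median 160.1), and 0 of 14 were called between genotypes. Their part in these differences was not tested.

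TwdlG, a weakly counted Tweedle gene, did not depend on CT0: it had a lowest, median and highest of 0.140, 0.654 and 5.10 CPM in per0, against 0, 0.241 and 1.78 CPM in w1118, and the groups overlapped. Cpr49Ah had at most 0.401 CPM in per0, against 6.18 CPM in w1118 CT24 B and 1.87 CPM in w1118 CT0 A, its highest values. Its call was kept in 36 of 36 fits that left out 1 library, but not without CT0. For Cpr67Fa2, which has a close copy in Cpr67Fa1, reads may be split between copies and its difference is uncertain. Cpr67Fa1, named after its values were seen, had -1.25 ± 0.66 log2 (adjusted p = 0.118).

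The study's title concerns rhythms shorter than a day, and cuticle genes were tested for periods of 24 h and 12 h together. No member was called by edgeR. For 24 h, 0 of 60 passed in per0 (2 at an unadjusted p under 0.05) and 0 of 50 in w1118 (4), where 0% and 0.618% of all genes were called. For 12 h, 0 of 60 passed in per0 (6) and 0 of 50 in w1118 (7), with 0% of all genes in each. The smallest adjusted p-values were 0.471 (Cpr78E) and 0.355 (Lcp2) for 24 h and 0.357 (Cpr51A) and 0.492 (Cpr78E) for 12 h, in per0 first. DESeq2 called 2 members for 24 h in w1118, Lcp1 (adjusted p = 0.0238) and Lcp2 (0.0255), and 0 in the other 3 tests, and limma voom called 0 in all 4. A difference between genotypes in the course over time was called for 0 of 62 members by edgeR (20 at an unadjusted p under 0.05), beside 0.374% of all genes. The smallest adjusted p-values were 0.111 for Cpr47Eg, 0.117 for Lcp4 and 0.121 for TwdlX, while DESeq2 called 26 and limma voom 1. For DESeq2 and limma voom no share over all genes is at hand.

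Genes that act with cuticle proteins showed which of these events they shared. Vajk2 and Vajk3, cuticle genes outside the 4 families, measured 162 and 390 CPM in per0 CT0 A, against 23.9 and 47.2 CPM in per0 CT0 B, and 117 and 223 CPM in w1118 CT28 B. Cht5, a chitinase of the moulting fluid, measured 29.4 and 11.7 CPM in per0 CT0, and 2.06 and 3.54 CPM in w1118 CT0, and at most 1.46 CPM at any later time. The gene e (ebony, of cuticle tanning) had 49.0 CPM in per0 CT0 A and at most 1.40 CPM in every other library. Of 9 tanning genes tested, 3 fell on the second day in per0 (e, ple and yellow-b), and in w1118 1 rose (t) and 1 fell (yellow-f2). Over all genes 7.64% were called lower in per0, and 4.57% higher and 10.5% lower in w1118.

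Genes of pupal and adult cuticle differed in level. Edg78E reached 0.737 CPM, Edg84A 0.115 CPM and Acp65Aa 0.302 CPM in any library, and the pupal gene Pcp reached 6.13 CPM, in w1118 CT24 B. Edg91, also a cuticle gene, had its highest values at 14.7 CPM in w1118 CT0 A and 8.18 CPM in per0 CT20 B, and fell on the second day in per0 (-4.78 ± 0.81 log2, adjusted p = 0.00491). It was 1 of 7 such genes called there, near the 16.6% of all genes called. In w1118 0 of 7 were called, beside 15.1% of all genes.

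Calls among ecdysone-response genes between days were mostly increases. On the second day 7 of 16 tested were called in per0, 6 higher and 1 lower, and 3 of 18 in w1118, all higher. Over all genes 8.97% were called higher and 7.64% lower in per0, and 4.57% higher and 10.5% lower in w1118. In either direction the shares were the 16.6% and 15.1% given above, and 3 of 18 is close to the second of these. Eip74EF, an early ecdysone target, rose by 3.50 ± 0.28 log2 in per0 (adjusted p = 0.000268) and by 1.58 ± 0.28 log2 in w1118 (0.00519). EcR, the ecdysone receptor, and br, an early target, rose in both, by 1.92 and 2.94 log2 in per0 and 1.21 and 1.34 log2 in w1118. Of the 10 fat body genes, 7 were called higher in per0, and 5 higher and 3 lower in w1118. Lsp1alpha, Lsp1gamma, Lsp2, Fbp1 and Fbp2, genes of larval serum proteins and other fat body products, rose in both. Lsp1beta and apolpp, the lipophorin gene, rose in per0, and Apoltp, Mtp and fat-spondin fell in w1118. Lsp2 measured 66.3 to 3714 CPM on the second day in per0 and at most 1.84 CPM on the first, while in w1118 it measured 2794 to 4692 CPM on the second day and 15.9 to 1784 CPM on the first. Time of sampling and age within the instar cannot be told apart in these libraries.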

How the data were processed

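The authors deposited raw counts per gene, 17610 genes in a table for each genotype. Per the submitters' processing notes, the tools were edgeR, DESeq2 1.30.1, featureCounts and STAR 2.7.9a, with roles not named. Genome build, annotation, strand setting and handling of reads with several matches are not given in the sources used here. A second deposited table per genotype holds a normalized signal for part of the genes, used only to see which members it lists.

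Members and gene lists (13 lists, 202 genes, 193 in the files) were chosen with earlier results of these data known. Counts were fitted for all genes with edgeR 4.0.16 in R 4.3.3: filterByExpr on the groups of genotype and time, TMM scaling, the quasi-likelihood F test, and Benjamini-Hochberg adjustment over all genes tested, with a call at an adjusted p under 0.05. Time, genotype, second day against first day (clock phase as a factor), and 24 h with 12 h cosine pairs were tested in the libraries each concerns. CPM shown were TMM-scaled over 36 libraries. Exonic lengths, neighbours and overlaps came from the Ensembl annotation of the fly genome. Members were named if among the 12 with the highest mean CPM, among up to 8 called per direction and comparison, or the 3 nearest where none was called, or the highest of a family or run of at least 4 genes. Alternatives were size factors by relative log expression, other filters, DESeq2 1.42.0, limma voom 3.58.1, leaving out each library, and leaving out CT0. Leaving out CT0 in per0 alone was added after seeing the data. Duplicates differed beyond counting noise in every group. The fits were tested on simulated data. Totals of 16513757 to 28423768 counts limit precision at the floor of 3 counts, and such floors hold for counting error alone, because PCR copies were not told apart by molecular identifiers.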

Additional observations from a re-analysis of the deposited data

How the results depend on the processing

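No paired analysis was possible because column letters are not linked to replicate numbers by any label. No call reversed its direction, but differences that were not called could change sign. Cpr78Cb differed between genotypes by -0.272 log2, and by 0.0116 log2 without per0 CT28 B. For the genotype difference, members called were 14 with no filter on low counts, 15 with DESeq2, 25 with limma voom and 4 without CT0, beside 8. Called higher in per0 were 18 with limma voom and 2 without CT0. Called lower were 2 with relative log expression scaling, 5 with no filter, 2 with a filter of 1 CPM in 2 libraries, 6 with DESeq2, 7 with limma voom and 2 without CT0. For any time in per0, DESeq2 called 38, limma voom 4 and the fit without CT0 1, and in w1118 limma voom called 7 and the fit without CT0 11. For time by genotype DESeq2 called 26 and limma voom 1. For the second day in per0, the fit without CT0 called 8 members, 6 of them lower, and a filter of 1 CPM left 1 called higher. For the second day in w1118, DESeq2 called 18 (5 higher, 13 lower), limma voom 5 (3 lower), and the fit without CT0 1 (1 higher, 0 lower), and no filter left 1 higher. DESeq2 called 2 for 24 h in w1118, and 1 member, Cpr78E, was called for 12 h in w1118 without CT0, beside 3.89% of all genes. Shares over all genes are at hand for the fits without CT0 and for few of those without 1 library. The other counts carry no such share, so they describe the members only. The causes were not tested. Leaving out 1 library at a time gave 5 to 13 genotype calls (4 to 12 higher, 1 to 4 lower), 4 to 23 any-time calls in per0 and 10 to 23 in w1118. For the second day it gave 10 to 28 calls in per0 (0 to 2 higher, 10 to 26 lower) and 2 to 6 in w1118 (1 to 2 higher, 1 to 5 lower), and 0 to 0 for the day difference and the 4 rhythm tests. A lone duplicate was assumed to vary like the other groups. Leaving out libraries was not run for time by genotype. Depth limits members near the floor, and 2 libraries per time limit all others.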
